A study of Mus musculus with 16 samples.

Results

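The 10 rows of a gene count table followed here in loaded and non-loaded mouse bone lie mostly on or opposite genes of blood and marrow cells. The rows are Gm11505, Kcnh7, Plppr3, Adgrg3, Hcn3, Apex2, Hps3, Cerkl, Tctn1 and Ly6e. They are 10 of the 47517 rows in the table. They were picked by name, with earlier results of these same data known in which several of them fell with loading. Of the 10 rows, 8 lie on the strand opposite another gene, and for all but Hps3 that gene is in the blood-cell lists used below. The loading changes are therefore values that chose the set, and they are given as a description without a test. The question asked of the set was whether its rows fall together in each loaded limb. They did not do so in every limb: of 80 pairs of a row and a mouse, 67 had the lower level in the loaded limb, 30 of 40 in the NT3 mice and 37 of 40 in the Ctrl mice, and Plppr3 was lower in 4 of 8 mice.

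RNA-seq was made of tibial cortical bone in 8 male mice, 16 weeks old, of which 4 are labelled NT3-Cre+ (NT3 here) and 4 Ctrl, with both limbs of every mouse sequenced. The 4 groups of 4 libraries are NT3 loaded, NT3 non-loaded, Ctrl loaded and Ctrl non-loaded. The right tibia was compressed on 9 days at 1200 cycles per day, with a peak force of 10.0 N in NT3 and 8.7 N in Ctrl so that both reached -2000 microstrain, with the left tibia of the same mouse left non-loaded. Collection came 4 hours after the final loading, and the bones were cleaned of muscle and spun to remove marrow, so blood-cell RNA here is what remained in or on the bone. The series title names activation of NIK, a kinase of the noncanonical NF-kB pathway, in the osteolineage. Neither the NT3 allele nor its Cre driver, nor what the Ctrl mice carry, is given in the sources used here. Mice are numbered 1 to 4 within a genotype.

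Bone marrow makes granulocytes, red cells and lymphocytes from common progenitors, and much of its RNA comes from a few lineages. Developing neutrophils pack enzymes such as myeloperoxidase (Mpo) and proteinase 3 (Prtn3) into granules. Red cell precursors make haem, beginning with the enzyme encoded by Alas2, and run glycolysis through the pyruvate kinase encoded by Pklr. The transcription factor PU.1 works at many myeloid promoters and GATA factors at many erythroid ones.

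Each of the 8 rows is annotated on the strand opposite another gene and shares exon positions with it (GRCm38, GENCODE M21). A row is called opposite a gene where their exons overlap by at least 20 bases. Cp, the gene opposite Hps3, is in none of the blood-cell lists used below. Gm11505, an antisense gene at chr11:87795784-87801144 on the minus strand, overlaps exons of Mpo by 512 bases. Kcnh7, a potassium channel gene at chr2:62693414-63184287 on the minus strand, overlaps Gca, which encodes grancalcin of neutrophil granules, by 696 bases. Plppr3, a membrane protein gene best known from neurons, at chr10:79860475-79874634 on the minus strand, overlaps Prtn3 by 159 bases and the splicing factor gene Ptbp1 by 251 bases. Tctn1, a gene of the transition zone of cilia at chr5:122237848-122264460 on the minus strand, overlaps Hvcn1, the proton channel of phagocytes and B cells, by 1574 bases, and the pseudogene Gm15481 by 539 bases.

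Hcn3, an ion channel gene at chr3:89146074-89160196 on the minus strand, overlaps Pklr by 711 bases. Apex2, a DNA repair nuclease gene at chrX:150519519-150589868 on the minus strand, overlaps Alas2 by 311 bases and Pfkfb1 by 123 bases. Hps3, a gene of lysosome-related organelles at chr3:19995945-20035315 on the minus strand, overlaps Cp, which encodes the copper ferroxidase ceruloplasmin, by 108 bases. Cerkl, a gene related to ceramide kinase at chr2:79330543-79456785 on the minus strand, overlaps the integrin alpha 4 gene Itga4 by 1124 bases and also shares 201 same-strand bases with Neurod1. Adgrg3, an adhesion receptor gene of granulocytes at chr8:95017692-95045250, and Ly6e, a surface protein gene at chr15:74955051-74959905, lie on the plus strand with no exon opposite them. The length the table gives for Adgrg3 is 2436 bases, against 6905 exon bases in GENCODE M21, so the annotation counted is not the one placed here.

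The strand setting of the counting is not given in the sources used here, so which strand a row counts is not known from them. It was not tested. The own row of Mpo held 1 to 10 fragments per library, beside 1764 to 6732 in Gm11505. That of Ptbp1 held 1 to 11, beside 385 to 595 in Plppr3. In the whole table, 88.0% of the 1242 rows averaging at least 100 fragments lie opposite another gene's exons, against 15.3% of the other rows. Each of these 10 rows is given by its own name, and a value is the value of that row.

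The promoters of the opposite genes were read because the rows had been grouped by lineage through them. Windows from 250 bases before to 50 bases after the transcription start were taken from RefSeq (GRCm38.p6), where 9 of 11 genes looked up had a window, 11 windows in all. Those 11 are the 9 opposite genes other than Pfkfb1 and Gm15481, with Adgrg3 and Ly6e themselves. 5 windows are printed, from 2 granule genes, 2 red cell genes and the receptor gene of the set. They are the windows that hold a motif marked here. Capitals mark GAGGAA, a core of PU.1 sites, or AGATAA, which GATA factors bind, on either strand, so that TTCCTC and TTATCT are the same motifs read from the other strand.
Mpo, chr11:87793534-87793833, plus strand: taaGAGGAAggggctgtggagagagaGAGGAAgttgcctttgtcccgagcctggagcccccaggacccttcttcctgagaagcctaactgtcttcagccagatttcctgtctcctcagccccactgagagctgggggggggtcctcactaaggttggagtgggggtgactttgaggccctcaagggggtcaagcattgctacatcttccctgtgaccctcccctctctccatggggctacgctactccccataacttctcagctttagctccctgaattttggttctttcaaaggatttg
Prtn3, chr10:79879417-79879716, plus strand: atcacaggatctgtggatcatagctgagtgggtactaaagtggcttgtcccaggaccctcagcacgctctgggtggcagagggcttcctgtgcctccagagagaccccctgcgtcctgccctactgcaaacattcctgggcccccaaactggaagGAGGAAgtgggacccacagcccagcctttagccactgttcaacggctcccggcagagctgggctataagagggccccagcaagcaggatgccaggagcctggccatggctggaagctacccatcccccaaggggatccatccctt
Pklr, chr3:89135892-89136191, plus strand: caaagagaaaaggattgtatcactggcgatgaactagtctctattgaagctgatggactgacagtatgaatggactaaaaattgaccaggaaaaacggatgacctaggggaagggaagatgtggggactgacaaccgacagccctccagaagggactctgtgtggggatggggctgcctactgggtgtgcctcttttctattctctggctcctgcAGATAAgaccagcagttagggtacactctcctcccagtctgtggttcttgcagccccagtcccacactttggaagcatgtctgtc
Alas2, chrX:150547167-150547466, plus strand: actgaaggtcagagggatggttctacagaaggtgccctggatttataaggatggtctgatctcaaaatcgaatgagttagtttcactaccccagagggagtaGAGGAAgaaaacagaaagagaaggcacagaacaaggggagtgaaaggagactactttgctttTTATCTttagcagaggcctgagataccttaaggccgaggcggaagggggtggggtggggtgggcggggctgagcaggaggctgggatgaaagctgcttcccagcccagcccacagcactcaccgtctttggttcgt
Adgrg3, chr8:95017442-95017741, plus strand: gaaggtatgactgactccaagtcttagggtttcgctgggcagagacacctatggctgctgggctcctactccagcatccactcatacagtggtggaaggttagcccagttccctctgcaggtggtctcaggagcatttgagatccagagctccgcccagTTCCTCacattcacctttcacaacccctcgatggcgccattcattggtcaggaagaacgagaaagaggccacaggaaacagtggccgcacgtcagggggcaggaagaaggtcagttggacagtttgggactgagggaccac

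GAGGAA stands 2 times in the Mpo window and 1 time each in those of Prtn3, Alas2 and Adgrg3, and is in 28.3% of all 32851 windows. AGATAA stands in the first Pklr window and in the Alas2 window, and is in 11.2% of all windows. TGATAA, the other GATA motif searched, was in none of the 11 windows and is in 9.1% of all. The motif TTGCNNAA of C/EBP factors was found in 1 window, the second of Cp, and is in 10.8% of all. The windows of Gca, Itga4 and Ptbp1, the first of Cp and the second of Pklr held none of the motifs searched. Both strands were searched for each motif, and none of the matches overlapped another. A match describes letters only.

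The levels are TMM-scaled CPM: fragments on the CPM scale, relative to the library's total times a scaling factor that ranged from 0.892 to 1.15. Libraries held 758394 to 911686 fragments in NT3 loaded, 775531 to 961382 in NT3 non-loaded, 852831 to 1064390 in Ctrl loaded and 897909 to 998031 in Ctrl non-loaded. The 10 rows together held 0.675% to 0.893% of the fragments in NT3 loaded, 0.865% to 1.20% in NT3 non-loaded, 0.533% to 0.804% in Ctrl loaded and 0.790% to 1.29% in Ctrl non-loaded. Per kilobase of the length in the table, mean levels in Ctrl non-loaded ran from 11.7 CPM for Ly6e and 19.3 for Hcn3 to 311 for Apex2 and 6595 for Gm11505. At this depth Ly6e had as few as 10 fragments in a library and Hcn3 as few as 21, while Gm11505 never had fewer than 1764.

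**Figure D1:**
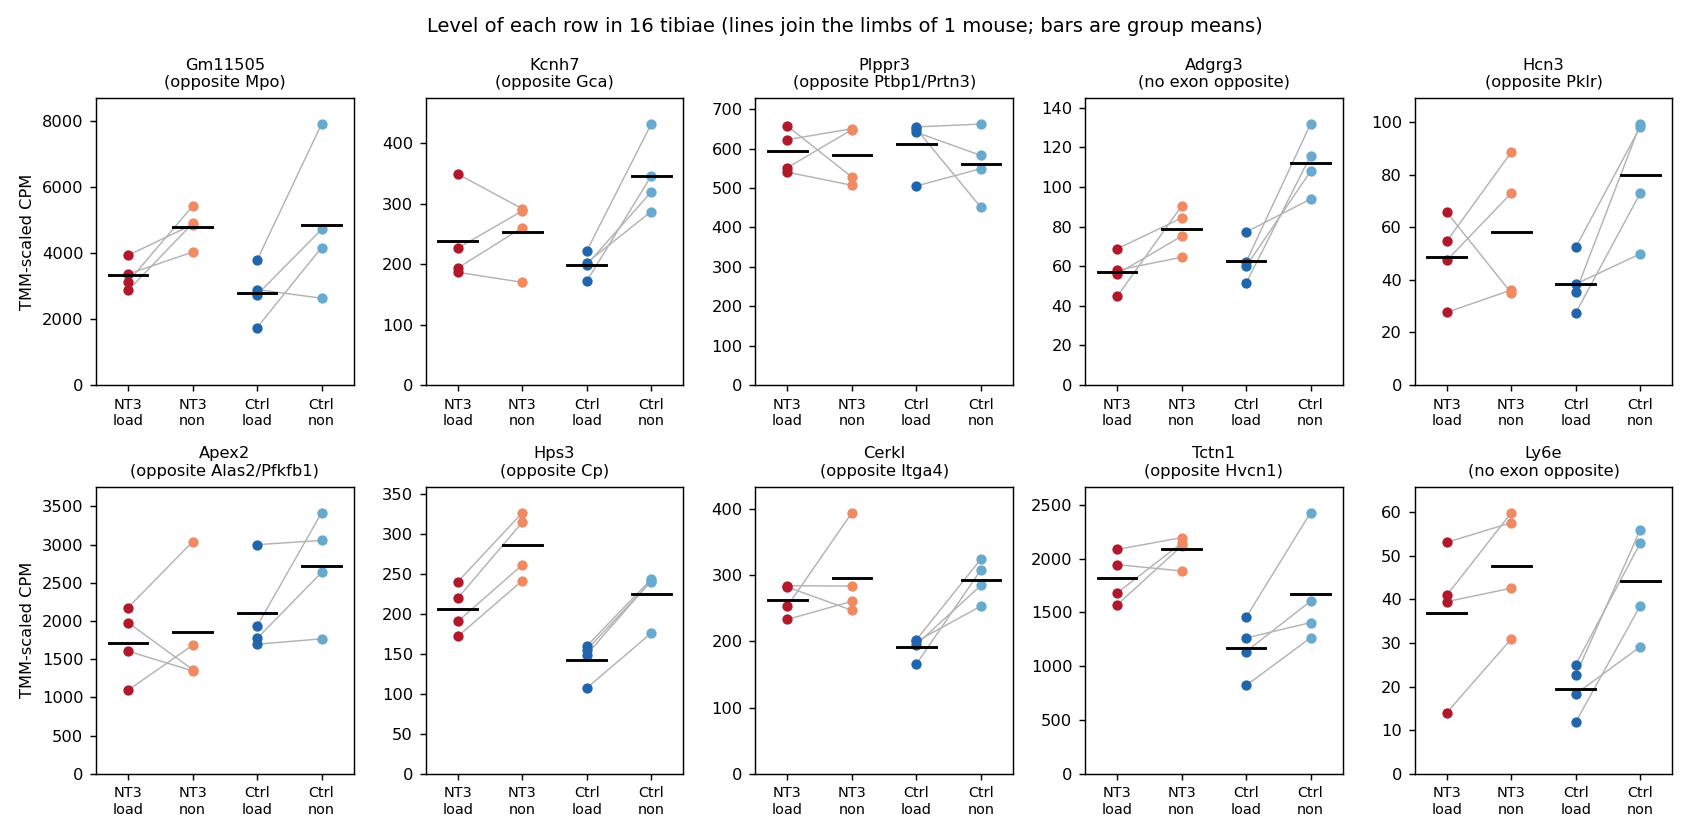
Level of each of the 10 rows (vertical axis, TMM-scaled CPM) in the 16 tibiae, in the order NT3 loaded, NT3 non-loaded, Ctrl loaded and Ctrl non-loaded; each point is 1 library, a line joins the limbs of 1 mouse and a bar is the group mean. Adgrg3, Hps3 and Ly6e slope the same way in all 8 mice, and the Plppr3 lines go both ways.

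The rows on or opposite neutrophil genes come first. Gm11505, opposite Mpo, was at 2874, 3365, 3936 and 3131 CPM in NT3 loaded limbs (mice 1 to 4), against 4901, 4033, 4867 and 5429 CPM in NT3 non-loaded limbs. In Ctrl it was at 3786, 1743, 2741 and 2895 CPM in loaded limbs, against 7917, 4169, 4721 and 2634 CPM in non-loaded limbs. The loaded limbs of all 4 NT3 mice were below every NT3 non-loaded limb, whereas the Ctrl groups overlapped: the non-loaded limb of Ctrl mouse 4 lay below the loaded limbs of Ctrl mice 1, 3 and 4. The fitted log2 change, loaded over non-loaded, was -0.53 in NT3 (SE 0.18) and -0.75 in Ctrl (SE 0.19). Without Ctrl mouse 4 the Ctrl value of Gm11505 was -1.02, and without Ctrl mouse 2 it was -0.58.

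Kcnh7, opposite Gca, was at 186, 226, 349 and 194 CPM in NT3 loaded limbs, against 170, 288, 292 and 260 CPM in NT3 non-loaded limbs. In Ctrl loaded limbs it was at 222, 172, 199 and 202 CPM, against 432, 346, 319 and 287 CPM in Ctrl non-loaded limbs. All 4 Ctrl loaded limbs lay below the lowest Ctrl non-loaded limb, and the NT3 groups overlapped, with 2 of 4 NT3 mice lower. The log2 change was -0.09 (SE 0.13) in NT3 and -0.79 (SE 0.13) in Ctrl.

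Plppr3, opposite Prtn3 and Ptbp1, was the row of the set whose fitted change was not negative in either genotype. It was at 552, 657, 623 and 540 CPM in NT3 loaded limbs, against 648, 527, 650 and 507 CPM in NT3 non-loaded limbs. In Ctrl it was at 655, 505, 641.0 and 649 CPM in loaded limbs, against 662, 549, 582 and 451 CPM in non-loaded limbs. The limbs overlapped in both genotypes, and the log2 change was 0.03 in NT3 and 0.13 in Ctrl, each with SE 0.12. Gm17134, another row opposite Ptbp1 and at a similar level, had log2 changes of -0.06 in NT3 and 0.05 in Ctrl.

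Adgrg3, a granulocyte gene with no exon opposite it, was at 56.0, 44.7, 57.9 and 68.7 CPM in NT3 loaded limbs, against 75.1, 90.3, 64.5 and 84.3 CPM in NT3 non-loaded limbs. In Ctrl loaded limbs it was at 62.0, 51.4, 77.2 and 59.9 CPM, against 132, 116, 93.8 and 108 CPM in Ctrl non-loaded limbs. It was lower in the loaded limb of 8 of 8 mice, and its Ctrl groups did not overlap. The log2 change was -0.47 (SE 0.20) in NT3 and -0.85 (SE 0.19) in Ctrl. Tctn1, opposite Hvcn1, ranged from 1570 to 2085 CPM in NT3 loaded and from 1885 to 2194 CPM in NT3 non-loaded limbs, and from 820 to 1454 CPM in Ctrl loaded and from 1264 to 2426 CPM in Ctrl non-loaded limbs. Both pairs of groups overlapped, 7 of 8 mice were lower, and the log2 change was -0.20 in NT3 and -0.50 in Ctrl, each with SE 0.11.

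Hcn3 and Apex2, the rows opposite red cell genes, follow. Hcn3, opposite Pklr, was at 47.4, 65.7, 27.6 and 54.7 CPM in NT3 loaded limbs, against 73.0, 35.01, 36.1 and 88.6 CPM in NT3 non-loaded limbs. In Ctrl it was at 27.4, 52.4, 35.3 and 38.4 CPM in loaded limbs, against 72.9, 98.1, 99.2 and 49.9 CPM in non-loaded limbs. In Ctrl 3 of the 4 loaded limbs lay below every non-loaded one, and loaded mouse 2 lay above non-loaded mouse 4. The log2 change was -0.23 in NT3 and -1.04 in Ctrl, each with SE 0.24.

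Apex2, opposite Alas2, was at 2175, 1977, 1603 and 1094 CPM in NT3 loaded limbs, against 3037, 1363, 1347 and 1682 CPM in NT3 non-loaded limbs. In Ctrl it was at 1771, 1933, 2998 and 1695 CPM in loaded limbs, against 2634, 3416, 3054 and 1765 CPM in non-loaded limbs. It was lower in all 4 Ctrl mice and in 2 of 4 NT3 mice, and the groups overlapped in both genotypes. Its log2 change was -0.08 (SE 0.19) in NT3 and -0.37 (SE 0.18) in Ctrl, and Ctrl mice 3 and 4 moved least.

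Hps3, opposite Cp, kept its groups apart in both genotypes. It was at 240, 172, 220 and 191 CPM in NT3 loaded limbs, against 327, 242, 315 and 261 CPM in NT3 non-loaded limbs. In Ctrl loaded limbs it was at 160, 155, 149 and 107 CPM, against 243, 241, 242 and 176 CPM in Ctrl non-loaded limbs. Every loaded limb was below every non-loaded limb of its genotype, and the log2 change was -0.48 in NT3 and -0.66 in Ctrl, each with SE 0.13. The difference in loading change of Hps3 was 0.18 (NT3 minus Ctrl), and 0.15 to 0.20 with each mouse left out in turn.

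Cerkl, opposite Itga4 of the integrin that holds progenitors and lymphocytes to VCAM1, ranged from 233 to 284 CPM in NT3 loaded limbs and from 247 to 395 CPM in NT3 non-loaded limbs. In Ctrl it was at 203, 166, 200 and 195 CPM in loaded limbs, against 325, 308, 253 and 285 CPM in non-loaded limbs. The Ctrl groups did not overlap, the NT3 groups did, and the log2 change was -0.15 in NT3 and -0.62 in Ctrl, each with SE 0.13. Ly6e, the lowest row per kilobase, was at 40.9, 53.1, 39.5 and 14.0 CPM in NT3 loaded limbs, against 59.9, 57.6, 42.6 and 30.9 CPM in NT3 non-loaded limbs. In Ctrl loaded limbs Ly6e was at 25.04, 11.9, 18.3 and 22.6 CPM, against 52.9, 38.5, 29.1 and 56.0 CPM in Ctrl non-loaded limbs. All 8 mice were lower in the loaded limb, the Ctrl groups did not overlap and the NT3 groups did, and the log2 change of Ly6e was -0.42 (SE 0.26) in NT3 and -1.19 (SE 0.28) in Ctrl.

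The loading contrasts were fitted over all rows with mouse as a block, and a row is called where its Benjamini-Hochberg adjusted p from edgeR's quasi-likelihood test is below 0.05. In Ctrl 8 of the 10 rows were called lower, all but Plppr3 and Apex2, where 1.00% of the 7192 rows tested were called lower. In NT3 0 of 10 were called, where 0.0834% of rows were called lower by edgeR, 546 rows of all were at an unadjusted p under 0.05, and DESeq2 also called 0 of the 10. These contrasts chose the set, so nothing is read from either count. The median log2 change of the 10 rows was -0.21 in NT3 (all rows -0.004) and -0.70 in Ctrl (all rows -0.03). The NT3 median was -0.10 without NT3 mouse 4 and -0.30 without NT3 mouse 2.

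9 of the 10 rows had a more negative change in Ctrl than in NT3, all but Plppr3, with a median difference of 0.34 (NT3 minus Ctrl). Over all rows tested the median difference was 0.01, and 49.1% of rows were below 0. The difference is built from the contrasts that chose the set, so nothing is read from its direction in the 10 rows. The difference itself passed the threshold in 0 of the 10 rows, where 0.139% of rows tested did so by edgeR and 472 were at an unadjusted p under 0.05. In Hcn3 the difference was 0.81, and it was 0.45 without NT3 mouse 2 and 1.00 without Ctrl mouse 4. Loading was to matched strain and not to matched force.

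**Figure D2:**
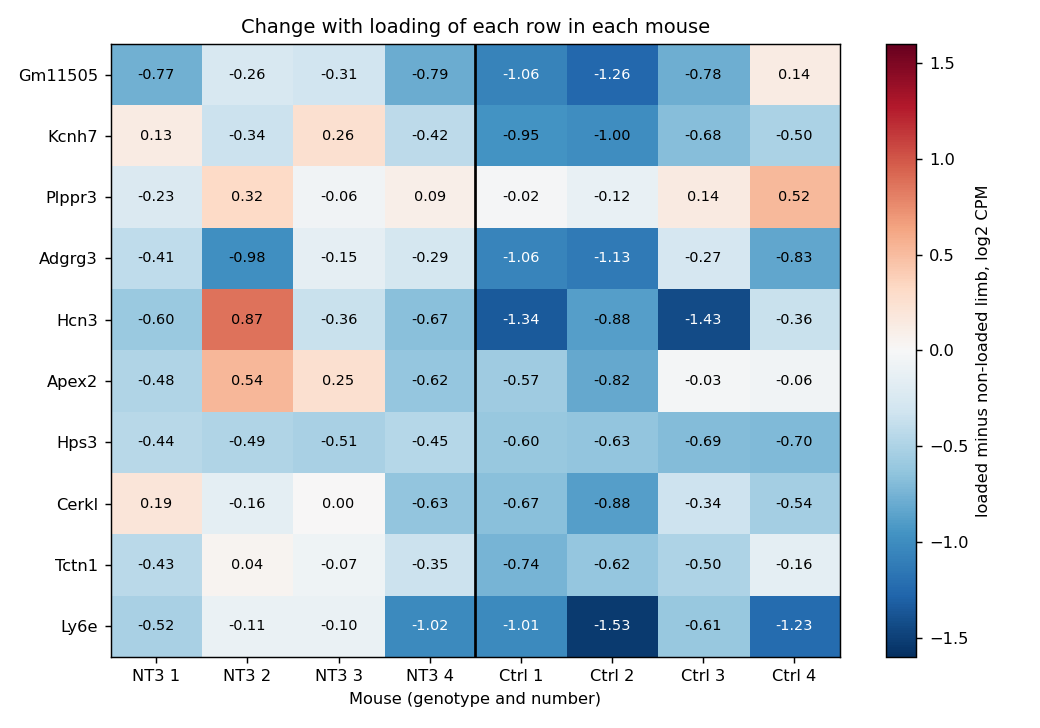
Change with loading of each row (rows of the grid) in each mouse (columns, NT3 1 to 4 then Ctrl 1 to 4), as loaded minus non-loaded log2 CPM, in colour and as a number. All 10 cells are below 0 in Ctrl mice 1 and 2, and 6 are in NT3 mouse 2.

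Limb by limb, the NT3 mice 1, 2, 3 and 4 had 8, 6, 7 and 9 of the 10 rows lower in the loaded limb, and the Ctrl mice 1, 2, 3 and 4 had 10, 10, 9 and 8. Over all rows tested, 48.9% to 51.7% were lower in a given mouse. The median change of the 10 rows was -0.44, -0.14, -0.09 and -0.54 in NT3 mice 1 to 4 and -0.85, -0.88, -0.55 and -0.43 in Ctrl mice 1 to 4. Every mouse therefore had a median below 0, and NT3 mice 2 and 3 lay closest to it.

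The rows that broke the pattern differed by mouse. In NT3 mouse 2 the largest rise was 0.87 on the log2 scale, in Hcn3, and in Ctrl mouse 4 it was 0.52, in Plppr3. Adgrg3, Hps3 and Ly6e were lower in the loaded limb of 8 of 8 mice, as were 1.17% of all rows tested. Gm11505, Hcn3 and Tctn1 were lower in 7 of 8, and Kcnh7, Apex2 and Cerkl in 6 of 8.

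Separation of the groups was a stricter measure. All 4 loaded limbs lay below all 4 non-loaded limbs for Gm11505 and Hps3 in NT3, where 1.61% of rows did so, and for Kcnh7, Adgrg3, Hps3, Cerkl and Ly6e in Ctrl, where 3.24% did so. Hps3 was in both sets.

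Over the 16 libraries, the log2 level of each row was set beside the mean of the standardised levels of the other 9. Pearson's r was 0.88 for Gm11505, 0.71 for Cerkl, 0.66 each for Hps3 and Tctn1, 0.62 for Ly6e, 0.61 for Kcnh7 and 0.55 for Adgrg3. It was 0.39 for Hcn3, 0.25 for Apex2 and 0.05 for Plppr3. The libraries share mice and groups, and these values are a description.

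Among the 4104 rows averaging at least 20 fragments, those most like the mean of the 10 over the 16 libraries all lie opposite another gene. So do 88.0% of all rows averaging at least 100 fragments. They were Gm26577 opposite Myb, a progenitor transcription factor gene (r = 0.89), Gm15491 opposite Mgea5 and Npm3 (0.88), 1700126G02Rik opposite Etnk1 (0.88), Gm26759 opposite Irf2bp2 (0.87) and Gm43495 opposite Pilrb2 (0.86). The row least like it was Mllt10, opposite Dnajc1 (-0.92). Rows found by this likeness inherit the choice of the set.

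The genes opposite have rows of their own, which the choice of the set did not use. For 4 of the genes the row was nearly empty: Mpo had 1 to 10 fragments per library beside 1764 to 6732 in Gm11505, Gca had 0 to 3 beside 138 to 367 in Kcnh7, Prtn3 had 0 to 12 beside 385 to 595 in Plppr3, and Pklr had 0 to 3 beside 21 to 92 in Hcn3. Ptbp1, which is used by nearly all cells, had 1 to 11. For the other 4 both rows could be fitted.

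**Figure D3:**
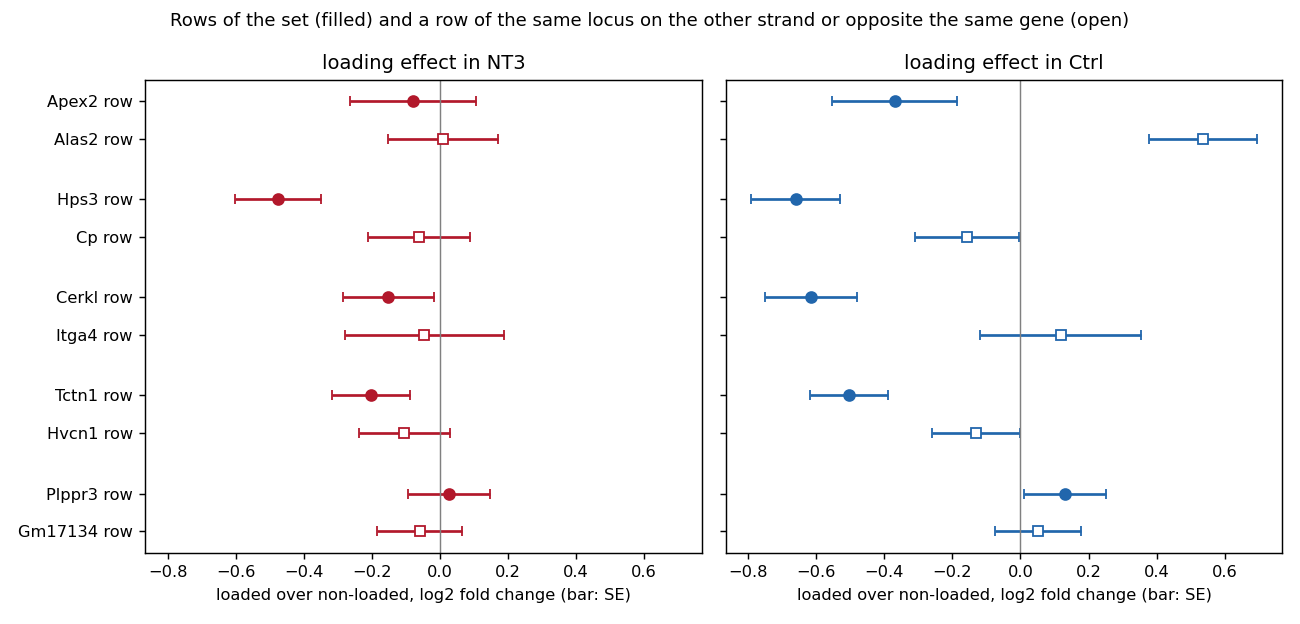
Log2 fold change, loaded over non-loaded, with its standard error for 5 rows of the set (filled) and for a row at the same locus (open), NT3 on the left and Ctrl on the right. In Ctrl the Apex2 point lies below 0 and the Alas2 point above it, and the Plppr3 and Gm17134 points both lie near 0.

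Alas2, whose exons lie opposite Apex2, had the other direction in its own row. The Alas2 row averaged 113 ± 21.6 CPM in NT3 loaded limbs and 112 ± 7.20 CPM in NT3 non-loaded limbs, and 137 ± 21.7 CPM in Ctrl loaded limbs and 94.2 ± 16.3 CPM in Ctrl non-loaded limbs (SD, n = 4 each). Its log2 change was 0.54 in Ctrl (SE 0.16, edgeR adjusted p = 0.0424, higher in 4 of 4 Ctrl mice) and 0.01 in NT3 (adjusted p = 0.998). The Ctrl call held in 7 of 14 alternative settings, with adjusted p-values by edgeR or DESeq2 from 0.0298 to 0.232, and was lost without Ctrl mouse 1, 2 or 3. The difference between the genotypes in the loading change of Alas2 was -0.53 (adjusted p = 0.673).

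The other 3 own rows did not pass the test. Cp had log2 changes of -0.06 in NT3 (adjusted p = 0.977) and -0.16 in Ctrl (adjusted p = 0.703), beside -0.48 and -0.66 in Hps3. Itga4 had -0.05 in NT3 (adjusted p = 0.990) and 0.12 in Ctrl (adjusted p = 0.882), beside -0.15 and -0.62 in Cerkl. Hvcn1 had -0.10 in NT3 (adjusted p = 0.940) and -0.13 in Ctrl (adjusted p = 0.716), beside -0.20 and -0.50 in Tctn1, all from edgeR. Whether a row and the row opposite it changed differently was not tested.

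Other rows at blood-cell genes give the surroundings of the set, with the 10 rows left out and lists that were drawn up with earlier results known. Over 8 lists of neutrophil, erythroid, B, T and NK, megakaryocyte, monocyte, progenitor and eosinophil or mast cell genes, 26 rows lying opposite a list gene were tested. In NT3 0 of the 26 were called and 18 were below 0, with a median of -0.06. In Ctrl 10 were called lower and 1 higher by edgeR, 23 were below 0 and the median was -0.46, beside 1.00% called lower, 3.07% called higher and a median of -0.03 over all rows.

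The count of 10 did not hold under every setting, although the direction did. DESeq2 called 1 lower, where 0.292% of rows were called lower by DESeq2, and edgeR without the mouse block called 1. Without Ctrl mouse 1, 2 or 3 edgeR called 5, 3 and 2, while 21 to 23 of the 26 stayed below 0 with medians from -0.49 to -0.41 when a Ctrl mouse was left out. Calls were lost over all rows too. The 72 rows called lower in Ctrl numbered 19 without the mouse block, and 40, 17 and 29 without Ctrl mouse 1, 2 or 3. By mouse, 18, 12, 14 and 13 of the 26 rows were lower in the loaded limb of NT3 mice 1 to 4, and 20, 22, 22 and 18 in Ctrl mice 1 to 4. In bulk tissue, fewer cells of a type and less RNA per cell cannot be told apart.

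By lineage, the rows opposite erythroid genes included 4 of 7 called lower in Ctrl by edgeR, beside 1.00% of all rows. Gm15816, opposite the membrane skeleton gene Ank1, had a log2 change of -0.53 in Ctrl (edgeR adjusted p = 0.00682) and -0.27 in NT3. Gm31748 and Gm27223, both opposite the mitochondrial iron importer gene Slc25a37, each had -0.53 in Ctrl (edgeR adjusted p = 0.00834 and 0.0103), and they share that target. Gm27223 also lies opposite Synb, which is in none of the blood-cell lists. Gm15816 was called in 11 of 14 alternative settings, and Gm31748 and Gm27223 in 10 each. The erythroid rows had a median of -0.13 in NT3 and -0.53 in Ctrl, beside -0.23 and -1.04 in Hcn3 and -0.08 and -0.37 in Apex2.

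Rows opposite B cell genes included 3 of 5 called lower in Ctrl, beside the same 1.00% of all rows, Tesk1 opposite Cd72 (log2 change -0.64, adjusted p = 0.0202 by edgeR), 5730488B01Rik opposite Pax5 (log2 change -0.85, adjusted p = 0.0401) and Gm29439, which lies opposite Cd22 (-0.60, adjusted p = 0.0288). Rows opposite progenitor genes included 2 of 6 lower, Gm26577 opposite Myb (-0.53, adjusted p = 0.0102) and Gm17590 opposite Cdk6 (-0.59, adjusted p = 0.0166), and 1 higher, Gm26735 opposite Sox4 (0.75, adjusted p = 9.5e-06), all by edgeR. Gm43109, opposite Vcam1, the ligand of the integrin that Itga4 encodes, had -0.52 (edgeR adjusted p = 0.0102). Of the lower rows here, Gm17590 was called in 11 of 14 alternative settings, Tesk1, Gm26577 and Gm43109 in 10, Gm29439 in 9 and 5730488B01Rik in 7, and Gm26735, the higher row, in 14. The 3 rows opposite neutrophil genes had 0 called by edgeR, with Gm19719 opposite Alox5ap at -0.38 (adjusted p = 0.0773) and Gtf2ird2 opposite Ncf1 at -0.21 (adjusted p = 0.411), beside -0.75 in Gm11505.

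Blood-cell rows were also read by their own names, and which strand they counted was not tested. Of 48 such rows tested in Ctrl, 4 were called higher and 1 lower by edgeR, with a median of -0.17, beside 3.07% of all rows called higher, 1.00% called lower and a median of -0.03. In NT3 0 were called, with a median of -0.08. The 4 in Ctrl were Mmp8, a neutrophil collagenase (log2 change 1.42, adjusted p = 1.9e-06), Cd72 (0.61, adjusted p = 0.000934), the red cell skeleton gene Epb41 (0.78, adjusted p = 0.00897) and Alas2. The 1 lower was Cr2, the complement receptor of B cells (-0.75, adjusted p = 0.00829). Of these 5, Mmp8 and Cd72 were called in 14 of 14 alternative settings, Epb41 and Cr2 in 12 and Alas2 in 7. The lists they come from were mixed in Ctrl. Of 9 neutrophil rows tested by name, 7 were below 0 (median -0.35), as were 5 of 11 erythroid rows (0.12) and 4 of 5 B lymphoid rows (-0.43). In NT3 these medians were 0.05, -0.09 and -0.06. Cd72 thus has a row called higher while Tesk1, opposite it, was called lower, and the 2 rows were not tested against each other.

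**Figure D4:**
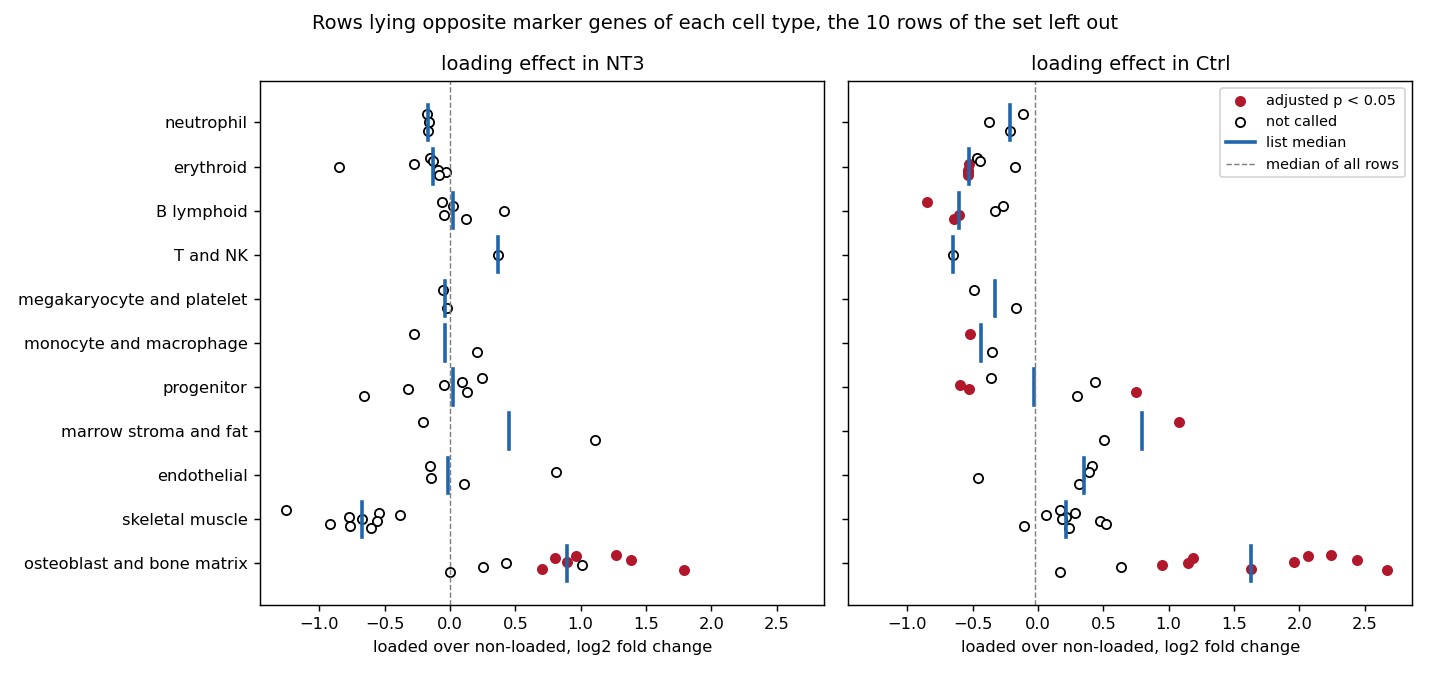
Log2 fold change, loaded over non-loaded, of rows lying opposite marker genes of 11 cell types or tissues, with the 10 rows of the set left out, NT3 on the left and Ctrl on the right; filled points passed an adjusted p of 0.05, open points did not, and the short bar is the list median. In Ctrl the erythroid and B lymphoid points lie below 0, and the osteoblast points lie above 0 in both genotypes.

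Rows at bone and muscle genes were read in the same libraries. Of 11 rows opposite osteoblast and bone matrix genes, 7 were called higher in NT3 (median 0.90) and 9 in Ctrl (median 1.63) by edgeR, beside 0.334% of all rows called higher in NT3 and 3.07% in Ctrl. Rows opposite skeletal muscle genes were summed as CPM of the library's total, without TMM scaling. The sums were 1339 to 5379 CPM in NT3 loaded, 2995 to 18448 in NT3 non-loaded, 1447 to 15422 in Ctrl loaded and 1996 to 14482 in Ctrl non-loaded libraries. The part of the muscle rows in the change of the 10 rows was not tested. With loading, the 14 rows opposite muscle genes included 9 tested and 0 called by edgeR in either genotype (median -0.68 in NT3 and 0.21 in Ctrl).

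The average level by genotype, with the fragments of both limbs of a mouse summed, was not what chose the set, and here the rows were tested. edgeR called 0 of the 10 rows, where 1.98% of the 8626 rows tested were called and 996 were at an unadjusted p under 0.05, and DESeq2 called 0 as well. The median log2 difference, NT3 over Ctrl, was 0.05 over the 10 rows and -0.006 over all rows, with 6 rows above 0 and 4 below.

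**Figure D5:**
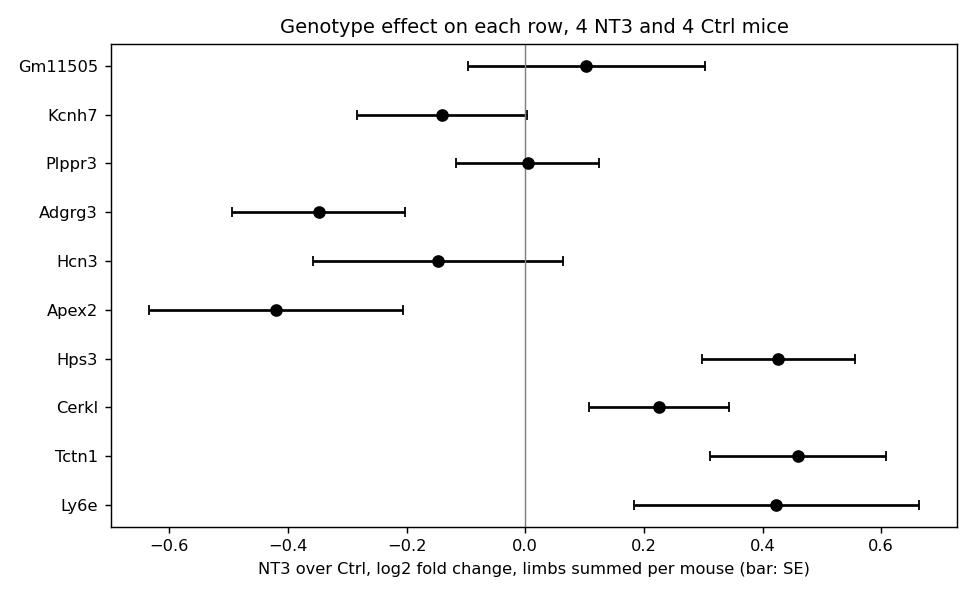
Log2 fold change of each row, NT3 over Ctrl, with both limbs of a mouse summed (point) and its standard error (bar), 4 NT3 and 4 Ctrl mice. Tctn1, Hps3 and Ly6e lie highest and Apex2 and Adgrg3 lowest.

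The largest values were 0.46 for Tctn1 (SE 0.15, edgeR adjusted p = 0.133), 0.43 for Hps3 (SE 0.13, adjusted p = 0.0924) and 0.42 for Ly6e (SE 0.24, adjusted p = 0.541) on the higher side. Apex2 was at -0.42 (SE 0.21, adjusted p = 0.504) and Adgrg3 at -0.35 (SE 0.15, adjusted p = 0.308). Cerkl was at 0.23, Gm11505 at 0.10, Plppr3 at 0.004, Kcnh7 at -0.14 and Hcn3 at -0.15, with adjusted p-values by edgeR from 0.477 to 0.996. With total counts as the scaling, edgeR called Hps3 (0.50, adjusted p = 0.0209) and Tctn1 (0.53, adjusted p = 0.0285) higher, and without NT3 mouse 1 it called Apex2 lower (-0.65, adjusted p = 0.0206). Across the alternatives the adjusted p by edgeR or DESeq2 ran from 0.0209 to 0.385 for Hps3, from 0.00231 to 0.401 for Tctn1 and from 0.0206 to 0.804 for Apex2.

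Limb by limb the genotype values lean on the libraries that chose the set and are a description. In loaded limbs 7 of the 10 rows were higher in NT3, with a median of 0.30, and 1 was called, Tctn1 at 0.64, where 1.32% of rows were called higher. The call was absent without NT3 mouse 3 or Ctrl mouse 3. In non-loaded limbs 0 were called, where 0.579% of rows were called in either direction by edgeR and 486 were at an unadjusted p under 0.05, and the median was -0.01. The non-loaded values ran from -0.56 for Apex2 to 0.33 for Hps3, and the loaded ones from -0.29 for Apex2 to 0.93 for Ly6e. Of the blood-cell rows outside the set with both limbs summed, Tesk1 opposite Cd72 (1.399, adjusted p = 1.1e-06), Gm29439, facing Cd22 (1.38, adjusted p = 3.4e-05), and Bach2os opposite Bach2 (0.84, adjusted p = 0.00517) were called higher in NT3 by edgeR, 3 of 6 B lymphoid rows tested, beside 1.14% of all rows called higher, and 0 of 3 neutrophil and 0 of 7 erythroid rows were called.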

How the data were processed

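Counts per gene of 16 tibiae were used as the authors deposited them. Per the labels' protocols, ribosomal RNA was depleted from total RNA (mean RIN 5.4), cDNA was made with random primers and reads were single-end, 75 bases. Per the submitters' processing notes, STAR 2.4.2a, featureCounts 1.4.6 and DESeq2 were used with mm10. Of 47517 rows, 45250 matched GENCODE M21 by symbol and 621 by an older symbol.

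Counts were tested with edgeR 4.0.16 (R 4.3.3) on TMM scaling, with rows kept by filterByExpr at a minimum count of 10. The test was the robust quasi-likelihood test, with Benjamini-Hochberg adjustment over all rows tested. It was also run on counts simulated from edgeR's own fitted model, which cannot check that model. The loading fit held all 16 libraries with mouse as a block. The genotype fits held 8 libraries, or 8 sums per mouse. DESeq2 1.42.0 was an alternative, beside other scalings, no filter, no block, and ribosomal rows or each mouse left out. Per-library log2 CPM had a prior count of 2.

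The labels tie both limbs to a mouse. Over rows, deviations from the group means of the 2 limbs of a mouse correlated at 0.0450 to 0.178, and for Ctrl mouse 4 its own 0.0450 was below its highest correlation with another Ctrl mouse, 0.0935. The pairing rests on the labels. In the loading fits with mouse as a block, p-values rest on the spread of the limb differences from mouse to mouse, pooled over both genotypes. In the genotype fits they rest on the spread between these mice.

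The 10 rows, the cell lists and the motifs were chosen with earlier results of these data known. Rows outside the set were named by a rule: from each list the 3 with the smallest p among those called that averaged at least 20 fragments, otherwise the 2 with the highest counts, and the 5 rows most like the set. Gm17134 and the opposite genes' own rows were added for their position, after values had been seen.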

Additional observations from a re-analysis of the deposited data

Results flagged for a closer look

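2 of 40 groups of 4 libraries had 1 library far from the other 3, and chance alone gives about 1 group in 20. Plppr3 in the loaded limb of Ctrl mouse 2 was at 505 CPM, where the other 3 Ctrl loaded limbs lay between 641.0 and 655 CPM. Hps3 in the non-loaded limb of Ctrl mouse 4 was at 176 CPM, where the other 3 Ctrl non-loaded limbs lay between 241 and 243 CPM. Without Ctrl mouse 4, as without any other mouse, the log2 change of Hps3 with loading in Ctrl stayed between -0.68 and -0.63.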

How the results depend on the processing

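Over 121 results and 1649 values under alternative settings, 1535 were counted as the same. Counts were the same within 1.5 times. For loading, its difference and genotype by limb, a value of the 10 rows was the same if it moved by less than an SD. That SD was of the row's loading changes between mice, so a lost or gained call still counted as the same. Other values of single rows had to keep their side of the threshold. They also had to keep their direction, save uncalled rows outside the set. The rows called with loading in Ctrl, 293, numbered 169 by DESeq2, and in NT3 the 30 numbered 17 by DESeq2 and 19 with total counts as the scaling. Without the replicate block for mouse they numbered 171 in Ctrl and 5 in NT3, the rows with a genotype difference in loading numbered 0 in place of 10, and the rows opposite blood-cell genes called lower in Ctrl numbered 1 in place of 10. With no low-count filter the rows with a genotype difference in loading numbered 17, and the rows differing by genotype in non-loaded limbs 71 in place of 36.

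With each mouse left out in turn, the counts ranged from 163 to 325 for loading in Ctrl (163 without Ctrl mouse 2, 188 without Ctrl mouse 3), from 17 to 44 for loading in NT3 (17 without NT3 mouse 1), from 7 to 14 for the difference, from 88 to 209 for genotype with limbs summed (91 without Ctrl mouse 2, 88 without NT3 mouse 3), from 12 to 77 for genotype in non-loaded limbs (77, 12 and 20 without Ctrl mice 1, 2 and 3, 14 without NT3 mouse 3) and from 2 to 11 for the blood-cell rows (5, 3 and 2 without Ctrl mice 1, 2 and 3). DESeq2 called 1 of those blood-cell rows.

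Of the 10 rows, 8 were called lower in Ctrl, 7 by DESeq2, 5 without the replicate block and 3 without Ctrl mouse 2, and 9 were below 0 under every setting. Over all rows, 72 were called lower in Ctrl, 21 by DESeq2, 19 without the replicate block and 17 without Ctrl mouse 2. The loading contrasts chose the set, so nothing is read from these counts. In NT3 Gm11505 was called with no low-count filter or without Ctrl mouse 4, where 11 and 10 rows of all were called lower. Of the set, 7 to 10 rows were below 0 in NT3. The count of 67 falls was 67 to 70 under the other scalings. In the summed genotype comparison Hps3 was also called without NT3 mouse 2 (adjusted p = 0.0480), and Tctn1 with no filter (0.0326) or without Ctrl mouse 1 (0.00231), all by edgeR. Uncalled values there changed sign: with each mouse left out in turn, Gm11505 ranged from -0.028 to 0.40 (below 0 without Ctrl mouse 2 or 4), Plppr3 from -0.041 to 0.077 (below 0 without Ctrl mouse 2 or 4 or NT3 mouse 1 or 3) and Hcn3 from -0.32 to 0.030 (above 0 without NT3 mouse 3). The cause was not tested.

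Ly6e and Hcn3, with 10 and 21 fragments in their lowest libraries, have the least precise changes of the set.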
